A study of Mus musculus with 7 samples.

Results

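Plcxd2, Plcxd3 and Plch1 are the 3 genes of the phospholipase C superfamily followed here, taken by symbol from the 297 genes of an in situ panel and compared between classes of neurons and non-neuronal cells, section by section. Phospholipase C enzymes cut membrane phosphoinositides into diacylglycerol, which stays in the membrane, and a soluble inositol phosphate that releases calcium from internal stores. Plch1 encodes phospholipase C eta-1, a calcium-sensitive enzyme known from neurons. Plcxd2 and Plcxd3 encode small proteins that carry the X region of the phospholipase C catalytic core and lack the other domains of the classical enzymes, and their roles in the brain are little described. Plcb1, which encodes a beta-type phospholipase C that acts downstream of Gq-coupled receptors, was also on the panel and served as a point of reference.

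The data were whole-number transcript counts from Xenium, an imaging assay that decodes single RNA molecules in place, which are then allotted to outlined cells. All 7 samples were snap-frozen coronal hemisections, 10 µm thick, of brains labelled wild type (WT). They comprised 2 anterior sections at bregma -0.58 mm, 2 intermediate sections between -0.70 and -0.82 mm and 3 posterior sections at -0.94 mm, placed on 2 slides. Slide 2 held only posterior replicates 3 and 4, so position is partly confounded with slide. Strain, age and sex were not given in the sources used here, nor was it stated that sections came from separate animals. The p-values therefore measure the spread between sections, which the class comparisons pool for each gene over the 4 classes.

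The sections held 50169 to 60720 cells and 17438577 to 23432215 transcripts each. Cells with at least 10 transcripts were sorted by gates on the transporter and enzyme genes that define transmitter type. VGLUT2-gate cells had at least 5 transcripts of Slc17a6, VGLUT1-gate cells at least 5 of Slc17a7, and GAD-gate cells at least 5 of Gad1 and Gad2 together, and each class excluded cells past another gate. Non-neuronal cells had at most 1 transcript for each gate and at least 5 transcripts summed over glial, vascular and meningeal markers. The classes held 19661 VGLUT2-gate, 92411 VGLUT1-gate, 92349 GAD-gate and 64692 non-neuronal cells, and a further 59491 cells passed several gates. Median depth was 426, 430, 375 and 144 transcripts per cell in the same order. The gates drew on whole hemisections, so the VGLUT2-gate class is not confined to the anterior thalamic nuclei. Of all cells past the Slc17a6 gate, 14.8% stood at exactly 5 transcripts.

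Counts of different genes depend on their probes, so each gene was compared only with itself between classes. Classes were compared on counts summed per section and class, with the section as a block, by edgeR's quasi-likelihood test after TMM scaling, with Benjamini-Hochberg adjustment over 249 genes and a threshold of 0.05. On the transcripts-per-cell scale the difference of the median gene between a neuronal and the non-neuronal class lay 1.07 to 1.17 higher in log2 than on the TMM scale. The background was set by control probes: their counts per cell, divided by the 6 different control probes seen at most in a cell, bound the mean background of a probe at 0.0962 transcripts per VGLUT2-gate cell, 0.0475 per VGLUT1-gate cell, 0.125 per GAD-gate cell and 0.217 per non-neuronal cell.

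Plcxd2 was highest in VGLUT1-gate cells, intermediate in VGLUT2-gate cells, lower in GAD-gate cells and close to the control-probe bound in non-neuronal cells. That bound is an upper limit and not the background itself: Tacr1 held only 0.0173 transcripts per non-neuronal cell. VGLUT1-gate cells held 3.81 to 4.8 Plcxd2 transcripts per cell over the 7 sections, with a median of 4.22 and a mean of 4.32 ± 0.42 (SD, n = 7). GAD-gate cells held 1.84 to 1.98 per cell, with a median of 1.91, the narrowest spread between sections of the 3 neuronal classes. Non-neuronal cells held 0.209 to 0.296, with a median of 0.223. VGLUT1-gate sections lay above all GAD-gate sections, and both lay above all non-neuronal ones.

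In VGLUT2-gate cells the Plcxd2 level per cell differed between sections by more than in the other neuronal classes. It was 1.78 and 4.13 in anterior replicates 1 and 2, 1.99 and 4.71 in intermediate replicates 1 and 2, and 2.85, 3.25 and 3.43 in posterior replicates 1, 3 and 4. The 3 sections numbered replicate 1 were the lowest, and the range overlapped those of the VGLUT1-gate and GAD-gate classes. On the TMM scale Plcxd2 was 1.5-fold lower in VGLUT2-gate than in VGLUT1-gate cells (log2 difference -0.59, SE 0.12, edgeR adjusted p = 1.24e-04). It was 1.51-fold higher in VGLUT2-gate than in GAD-gate cells (log2 difference 0.59, SE 0.12, edgeR adjusted p = 1.28e-04), and 2.27-fold higher in VGLUT1-gate than in GAD-gate cells (1.18, SE 0.12, edgeR adjusted p = 6.44e-09). Because the class fit pools the spread over the classes, its SE does not show the wider spread of VGLUT2-gate cells and can be too small for them. Fitted within 1 class, the SE of posterior minus anterior was 0.44 for Plcxd2 in VGLUT2-gate and 0.05 in VGLUT1-gate cells. For Plcxd3 these were 0.58 and 0.09. The order of the glutamatergic classes rested on leaving out cells past several gates. With those cells counted in each class whose gate they passed, Plcxd2 was higher in the VGLUT2 than in the VGLUT1 class (log2 difference 0.16, edgeR adjusted p = 0.00313).

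**Figure D1:**
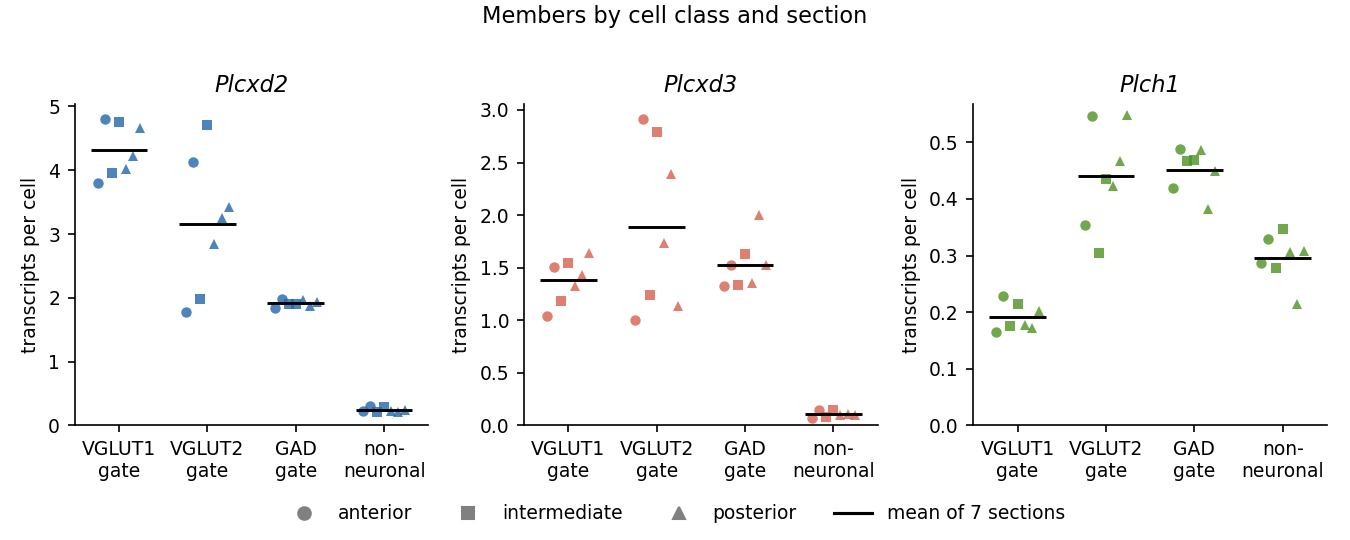
Transcripts per cell of Plcxd2, Plcxd3 and Plch1 (vertical axes from 0, 1 panel a gene) in 4 cell classes. Each symbol is 1 section, its shape gives the position, and the line is the mean of 7 sections. Plcxd2 was highest in VGLUT1-gate cells, both Plcxd genes spread widely in VGLUT2-gate cells, and Plch1 was lowest in VGLUT1-gate cells; per cell, Plch1 was lower in non-neuronal than in VGLUT2-gate and GAD-gate cells, an order that turns when counts are scaled by TMM.

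Plcxd3 was mainly a neuronal transcript, with similar levels in the 3 neuronal classes. VGLUT1-gate cells held 1.04 to 1.64 Plcxd3 transcripts per cell, with a median of 1.43, and GAD-gate cells 1.33 to 2.0, with a median of 1.52. VGLUT2-gate cells held 1.01 and 2.91 in anterior replicates 1 and 2, 1.24 and 2.79 in intermediate replicates 1 and 2, and 1.73, 2.39 and 1.13 in posterior replicates 1, 3 and 4. The ranges of the 3 neuronal classes overlapped. Non-neuronal cells held 0.0662 to 0.145 per cell, below the control-probe bound of that class, so the fold against them has no exact size.

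None of the 3 comparisons between neuronal classes passed the threshold for Plcxd3. In log2 they gave 0.26 (SE 0.14, edgeR adjusted p = 0.0881) for VGLUT2-gate minus VGLUT1-gate cells, 0.14 (SE 0.14, edgeR adjusted p = 0.366) for VGLUT2-gate minus GAD-gate cells and -0.13 (SE 0.14, edgeR adjusted p = 0.404) for VGLUT1-gate minus GAD-gate cells. The first of these passed without anterior replicate 1 (0.35, edgeR adjusted p = 0.0341), without posterior replicate 4 (0.43, edgeR adjusted p = 0.00785) and under 6 other settings, by 0.30 to 0.58. Against non-neuronal cells the fitted differences, which depend on that background, were 2.97, 2.70 and 2.83 for the VGLUT2, VGLUT1 and GAD gates, with edgeR adjusted p of 5.83e-14 or lower.

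Plch1 followed another order: it was similar in VGLUT2-gate and GAD-gate cells, lower in VGLUT1-gate cells, and present in non-neuronal cells. GAD-gate cells held 0.383 to 0.488 Plch1 transcripts per cell, with a median of 0.467. VGLUT2-gate cells held 0.355 and 0.546 in the anterior sections, 0.305 and 0.435 in the intermediate ones and 0.422, 0.467 and 0.548 in the posterior ones. VGLUT1-gate cells held 0.165 to 0.229, with a median of 0.178, and non-neuronal cells 0.215 to 0.346, with a median of 0.306. All VGLUT1-gate sections lay below all VGLUT2-gate and GAD-gate sections.

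Plch1 was 2.14-fold higher in VGLUT2-gate than in VGLUT1-gate cells (log2 difference 1.10, SE 0.10, edgeR adjusted p = 2.94e-10) and 2.35-fold lower in VGLUT1-gate than in GAD-gate cells (-1.24, SE 0.10, edgeR adjusted p = 4.27e-11). VGLUT2-gate and GAD-gate cells were not told apart (-0.13, SE 0.10, edgeR adjusted p = 0.196), although without posterior replicate 3 the difference passed (-0.22, edgeR adjusted p = 0.0413). Against non-neuronal cells Plch1 was lower in VGLUT1-gate cells on both scales, by -1.70 in log2 with TMM scaling and -0.63 per cell. For the VGLUT2 and GAD gates the TMM differences of -0.60 and -0.47 turned to 0.57 and 0.62 per cell, so these 2 directions depend on whether levels are read per transcript or per cell.

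Over the 18 comparisons of 3 genes and 6 class pairs, 14 passed the threshold. The panel's own share was high, with 86.3% of 249 genes called between the VGLUT2 and VGLUT1 gates, 80.3% between VGLUT2 and GAD, 88.4% between VGLUT2 and non-neuronal, 86.3% between VGLUT1 and GAD, 93.2% between VGLUT1 and non-neuronal and 89.2% between GAD and non-neuronal. The count for these 3 genes, 2 of 3 or 3 of 3 in most pairs and 1 of 3 between VGLUT2 and GAD, was therefore not apart from the panel.

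The make-up of the summed counts changed from class to class. Plcxd2 made up 73.4% ± 1.4 (SD, n = 7) of the summed counts of the 3 genes in VGLUT1-gate cells, 57.7% ± 4.6 in VGLUT2-gate, 49.3% ± 2.8 in GAD-gate and 37.8% ± 1.3 in non-neuronal cells. Plcxd3 made up 23.4% ± 1.5, 33.8% ± 5.7, 39.1% ± 3.9 and 16.1% ± 3.2 in the same order. Plch1 made up 3.24% ± 0.17, 8.49% ± 2.0, 11.6% ± 1.3 and 46.1% ± 3.7. A share within 1 class reflects probe efficiency and background as well as expression, and only changes of ratios between classes were tested. In non-neuronal cells Plcxd2 lay close to the control-probe bound and Plcxd3 below it, so the shares there have no exact size.

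The log2 ratio of Plcxd2 to Plch1 was 4.5 ± 0.07 (SD, n = 7) in VGLUT1-gate, 2.80 ± 0.34 in VGLUT2-gate, 2.09 ± 0.10 in GAD-gate and -0.28 ± 0.15 in non-neuronal cells. These ratios need no scaling between classes, but background enters them. In non-neuronal cells Plcxd2 lay close to the control-probe bound and Plcxd3 below it, so ratios there have no exact size. The difference in the ratio of Plcxd2 to Plch1 was 2.41 ± 0.05 between the VGLUT1 and GAD gates, positive in 7 of 7 sections and ranging only from 2.33 to 2.48. It was 4.78 ± 0.15 between VGLUT1-gate and non-neuronal cells. A two-sided exact permutation test that flips signs over sections gave p = 0.0156 for both, the smallest that 7 sections allow (0.0188 after adjustment over 18 tests).

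The ratio of Plcxd2 to Plcxd3 separated the glutamatergic classes in 6 of 7 sections, lower by -0.87 ± 0.44 in VGLUT2-gate than in VGLUT1-gate cells (exact permutation p = 0.0313, adjusted 0.0331). The exception lay at 0.09. The ratio of Plcxd3 to Plch1 was not told apart between VGLUT2-gate and GAD-gate cells, with a difference of 0.26 ± 0.58 that was positive in 4 of 7 sections (exact permutation p = 0.297). Of the 18 ratio tests, 17 passed. The 2 in which 6 of 7 sections agreed in sign missed the threshold when any 1 of those 6 sections was left out (exact permutation, adjusted p = 0.0662). The section of opposite sign then stayed in. The smallest p is larger with 6 sections, but no other ratio test changed its call when 1 section was left out.

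**Figure D2:**
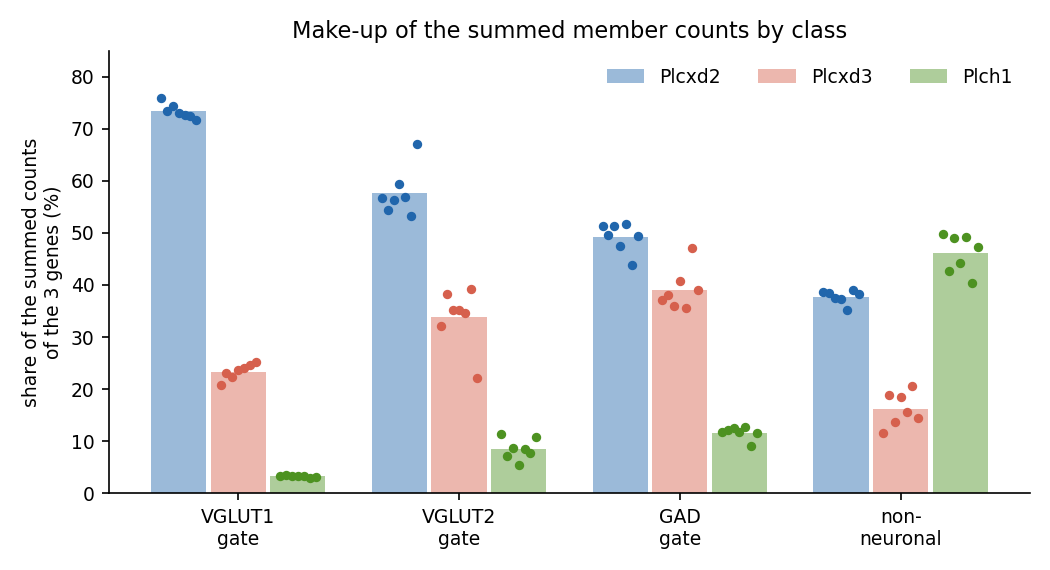
Share of the summed counts of Plcxd2, Plcxd3 and Plch1 contributed by each gene (percent, vertical axis from 0) in 4 cell classes. Bars are means and points are the 7 sections. The Plch1 share was 3.24% in VGLUT1-gate and 46.1% in non-neuronal cells, and the Plcxd3 share was largest in GAD-gate cells at 39.1%. Non-neuronal shares rest on Plcxd2 and Plcxd3 levels close to or below the control-probe bound.

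Detection per cell did not keep the order of the mean levels throughout. At least 1 Plcxd2 transcript was seen in 79.6% of VGLUT2-gate cells (95% Wilson interval 79.0 to 80.1), 73.2% of VGLUT1-gate, 58.4% of GAD-gate and 17.3% of non-neuronal cells. With each cell thinned to 100 transcripts the shares were 44.3%, 44.1%, 31.7% and 11.9% over all cells. By section the thinned share ran from 30.2% to 51.1% in VGLUT2-gate and from 41.9% to 45.5% in VGLUT1-gate cells, so the classes overlapped. For Plcxd3 the thinned shares were 27.3%, 20.1%, 26.2% and 5.63%, against 49.4%, 45.7%, 50.4% and 8.22% before thinning. For Plch1 the thinned shares were 8.87%, 3.99%, 9.82% and 12.6%, against 28.0%, 15.3%, 24.6% and 17.3%. Non-neuronal cells thus had the largest Plch1 share at matched depth, but lay below the VGLUT2 and GAD gates at their own depth, and thinning left out 28.2% of them as too shallow. Intervals cover counting error only.

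Cells that held transcripts of all 3 genes made up 13.5% of VGLUT2-gate, 13.4% of GAD-gate, 5.29% of VGLUT1-gate and 0.408% of non-neuronal cells. The largest class without any of them was the non-neuronal one, at 63.5%, against 11.5% of VGLUT2-gate cells. A minority of cells carried much of the signal: the tenth of VGLUT1-gate cells with most Plcxd2 held 45.2% of its transcripts there, and the highest cell held 93.

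Within the VGLUT1-gate class, Plcxd2 marked the cells led by Rorb or Fezf2. Cells were divided by the marker with the highest count of at least 5 among Cux2, Rorb, Fezf2, Foxp2, Cplx3 and Prox1, which mark upper, middle and deep cortical layers, the subplate and the dentate gyrus. The groups are named by marker only, and the anterior sections also held Prox1-led cells (140 and 118). Fezf2-led cells held 9.04 to 10.9 Plcxd2 transcripts per cell (median 9.74) and Rorb-led cells 7.61 to 9.16 (median 8.47). Cux2-led cells held 2.07 to 2.73, Prox1-led cells 0.747 to 2.23, Foxp2-led cells 0.951 to 1.16 and Cplx3-led cells 0.503 to 0.706. The Fezf2-led and Rorb-led sections lay above those of the 4 other groups.

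Against the other VGLUT1-gate cells, the Plcxd2 log2 difference was 1.52 for Rorb-led, 1.12 for Fezf2-led, -0.97 for Prox1-led, -1.04 for Cux2-led, -1.62 for Foxp2-led and -2.60 for Cplx3-led cells, each past the threshold (edgeR adjusted p = 5.66e-04 or lower). Plcxd3 ran the other way in part. It was highest in Cplx3-led cells, at 2.55 to 3.29 transcripts per cell (median 2.69), where it lay 1.39 above the rest in log2, and in Foxp2-led cells it lay 1.10 above. It was 0.51 above the rest in Fezf2-led cells and lower in Rorb-led (-0.35), Prox1-led (-0.46) and Cux2-led cells (-0.77), all past the threshold by edgeR.

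Plch1 was low in all these groups. It was higher than in the rest in Cux2-led cells (log2 difference 0.70) and lower in Fezf2-led (-0.78) and Cplx3-led cells (-0.74), where its 0.0954 transcripts per cell lay below the control-probe bound of 0.187. Its 0.75 in Foxp2-led cells fell to 0.03 with library sizes in place of TMM. Rorb-led and Prox1-led cells did not pass (0.10 and 0.03). The first passed without anterior replicate 2 and per cell, and the second turned to -0.44 per cell. The calls for the 3 genes numbered 3 of 3 in the Cux2 (86.3% of 233 genes called), Fezf2 (88%), Foxp2 (90.1%) and Cplx3 (85.8%) groups and 2 of 3 in the Rorb (83.7%) and Prox1 (56.7%) groups.

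In the GAD-gate class, Plch1 stood out in Pvalb-led cells, which are named by their marker only and were drawn from whole hemisections. They held 0.830 to 1.08 Plch1 transcripts per cell (median 0.994), above the control-probe bound of 0.204. Sst-led cells held 0.188 to 0.563, Lamp5-led cells 0.184 to 0.630, Vip-led cells 0.108 to 0.280, Penk-led cells 0.139 to 0.203 and Pdyn-led cells 0.0778 to 0.143. Every Pvalb-led section was above every section of the other 5 groups. The log2 difference from the other GAD-gate cells was 1.76 (SE 0.11, edgeR adjusted p = 1.43e-07) in Pvalb-led cells, and -1.54 and -1.79 in Penk-led and Pdyn-led cells, which carry the opioid peptide genes of striatal projection neurons. Lamp5-led (-0.68) and Vip-led cells (-0.90) were also lower by edgeR, while Sst-led cells did not pass (-0.37, edgeR adjusted p = 0.0547) unless anterior replicate 2 or intermediate replicate 2 was left out. The Lamp5-led call was lost without intermediate replicate 1, intermediate replicate 2 or posterior replicate 1 (edgeR adjusted p up to 0.0543) and with the marker minimum at 10.

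Plcxd2 followed another order in the same groups, which are named by their leading marker only. It was higher than in the rest in Pvalb-led (log2 difference 0.85), Vip-led (0.74), Sst-led (0.63) and Lamp5-led cells (0.30) and lower in Pdyn-led (-0.93) and Penk-led cells (-1.04). The Vip-led value was 0.31 per cell and did not pass there, and the Lamp5-led call was lost without anterior replicate 1, posterior replicate 3 or posterior replicate 4 (edgeR adjusted p up to 0.103) and with library sizes. Plcxd3 passed only in Sst-led (0.45, lost with library sizes) and Penk-led cells (-0.45) among these 6 groups. Its -0.15 in Vip-led cells became -0.39 without posterior replicate 3 (edgeR adjusted p = 0.0491), and its 0.06 in Pdyn-led cells became -0.55 with library sizes and -0.22 per cell. Calls numbered 3 of 3 in the Penk group (83.7% of 233 genes called) and 2 of 3 in the Pvalb (87.6%), Sst (73%), Vip (57.1%), Lamp5 (56.7%) and Pdyn (80.3%) groups.

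**Figure D3:**
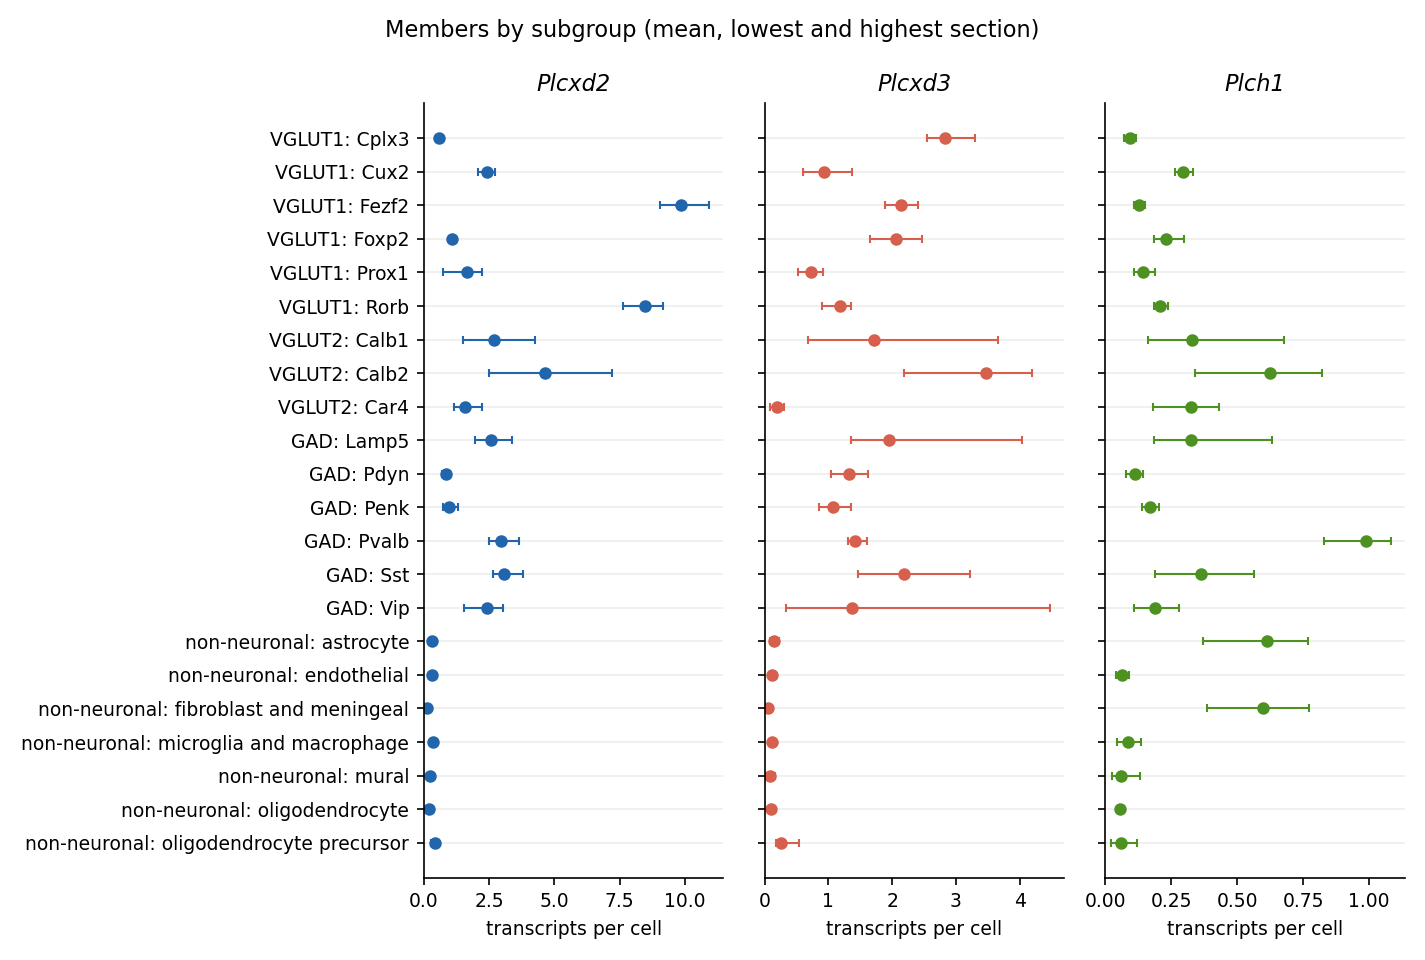
Transcripts per cell of Plcxd2, Plcxd3 and Plch1 (horizontal axes from 0, 1 panel a gene) in subgroups of the 4 classes, each named by its leading marker or marker list. Points are means over 7 sections and lines run from the lowest to the highest section. Plcxd2 was highest in Fezf2-led and Rorb-led VGLUT1-gate cells, Plcxd3 in Calb2-led VGLUT2-gate and Cplx3-led VGLUT1-gate cells, and Plch1 in Pvalb-led GAD-gate cells.

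The VGLUT2-gate class held the widest contrast of Plcxd3. Its cells were divided by Calb2 and Calb1, which encode calcium-binding proteins, and Car4, a carbonic anhydrase gene of thalamic relay neurons. Calb2-led cells held 2.19 and 4.05 Plcxd3 transcripts per cell in the anterior sections, 3.76 and 4.20 in the intermediate ones and 4.03, 3.62 and 2.45 in posterior replicates 1, 3 and 4. Car4-led cells held 0.0875 to 0.304, with a median of 0.201. No section of either group came near the other. The log2 difference from the other VGLUT2-gate cells was 1.86 (SE 0.18, edgeR adjusted p = 1.77e-05) in Calb2-led and -3.24 (SE 0.17, edgeR adjusted p = 4.73e-08) in Car4-led cells. Calb1-led cells did not pass for Plcxd3 (-0.39), Plcxd2 (-0.26) or Plch1 (-0.53), with 46.3% of 231 genes called there. With library sizes all 3 passed there, Plcxd2 and Plch1 also without posterior replicate 4, and Plcxd3 without posterior replicate 3.

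Plcxd2 moved in the same direction in these groups, by 1.01 in Calb2-led and -0.84 in Car4-led cells, both past the threshold by edgeR. Plch1 rose by 0.95 in Calb2-led cells (edgeR adjusted p = 0.00229) and did not pass in Car4-led cells (-0.26, edgeR adjusted p = 0.297), where it passed per cell and with library sizes. Calls numbered 3 of 3 in the Calb2 group, against 69.7% of 231 genes, and 2 of 3 in the Car4 group, against 82.3%.

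The share of Calb2-led cells in the VGLUT2-gate class also differed between sections. It was 30.3% and 49.2% in anterior replicates 1 and 2, 20.6% and 46.8% in intermediate replicates 1 and 2, and 30.4%, 52.8% and 25.1% in posterior replicates 1, 3 and 4. The 3 sections with the largest share had the 3 highest Plcxd3 levels of the class, but the other sections did not keep this order. Posterior replicate 4, at 25.1%, had the highest Plch1 level of the class. Within Calb2-led cells Plcxd2 still ran from 2.48 in anterior replicate 1 to 7.21 in intermediate replicate 2. The part of the make-up of the class in the section differences was not tested.

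**Figure D4:**
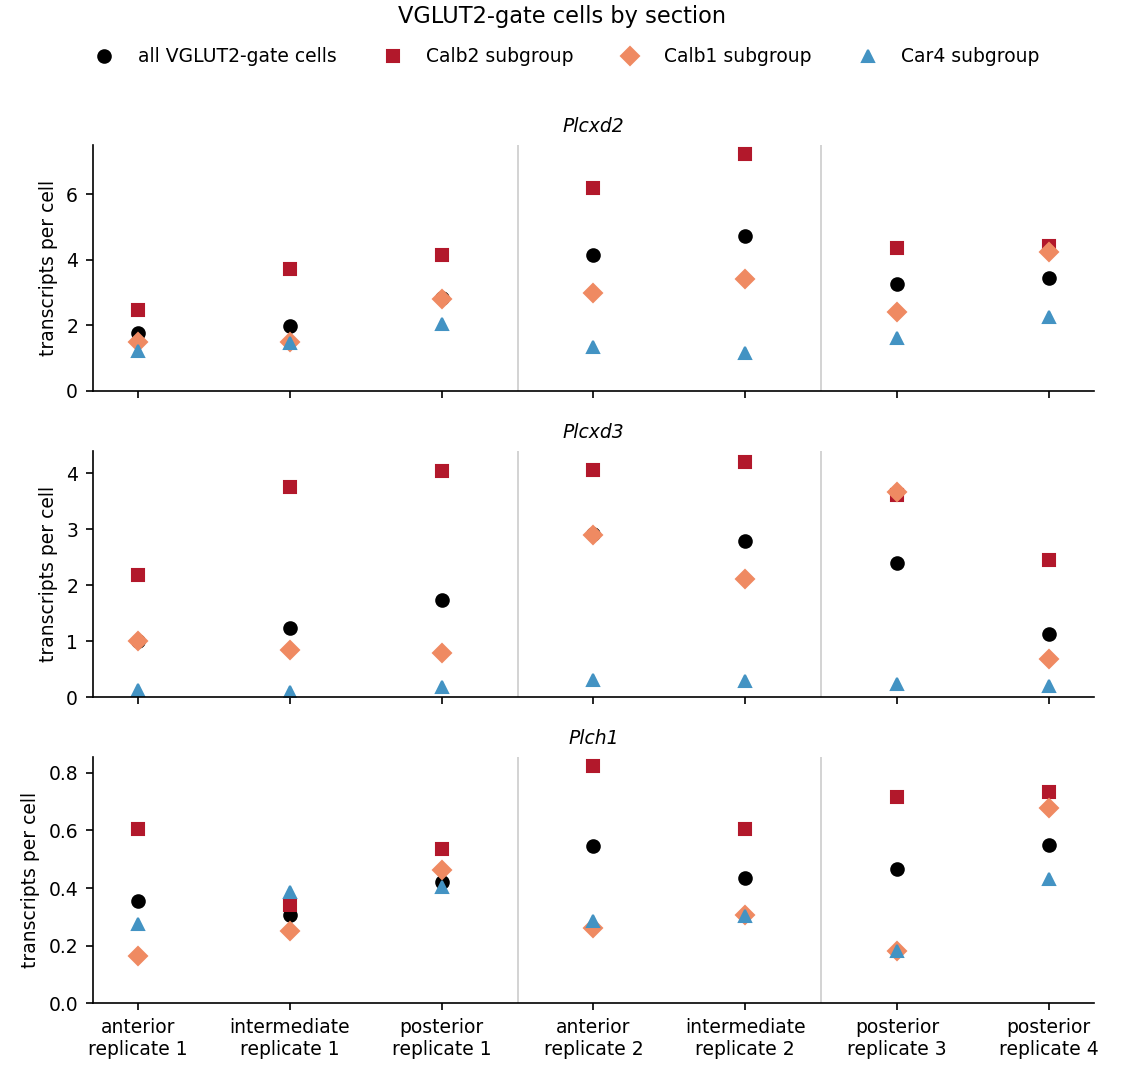
Transcripts per cell of Plcxd2, Plcxd3 and Plch1 (vertical axes from 0) in all VGLUT2-gate cells and in those led by Calb2, Calb1 or Car4, by section (horizontal axis). Plcxd3 was between 2.19 and 4.20 in Calb2-led cells and at most 0.304 in Car4-led cells of each section, and Plcxd2 of the whole class was lowest in the 3 sections numbered replicate 1.

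C1ql2 marks the anterodorsal thalamic nucleus, whose neurons carry both Slc17a6 and Slc17a7. C1ql2-rich cells of the VGLUT1-gate class were not counted. The C1ql2-rich cells described here were those past both glutamatergic gates. In the 6 sections with at least 10 of them, 849 such cells with at least 5 C1ql2 transcripts held 6.47 to 10.0 Plcxd2, 0.113 to 0.286 Plcxd3 and 0.182 to 0.286 Plch1 transcripts per cell. All cells past both glutamatergic gates held 7.95 to 9.86 Plcxd2, 1.16 to 2.66 Plcxd3 and 0.232 to 0.908 Plch1. Low Plcxd3 was thus shared by the C1ql2-rich and the Car4-led cells. These cells were picked after the class results were seen, so their values are given as a description.

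Cells past several gates were deeper, with a median of 576 transcripts, and held more Plcxd2. They carried 37.3% of all Plcxd2 transcripts in 15.5% of all cells, against 30.3% of Plcxd3 and 20.1% of Plch1 transcripts. Plcxd2 reached 11.5 to 13.4 transcripts per cell in cells past all 3 neuronal gates. Plcxd3 was highest in cells past the VGLUT2 and GAD gates, at 4.07 to 5.68, above every section of the VGLUT2-gate and GAD-gate classes. Whether these were single cells or neighbours joined by segmentation was not tested.

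Among the marker lists of non-neuronal cells, Plch1 was high in the astrocyte list and in the fibroblast and meningeal list, which held 29.7% and 31.2% of the Plch1 transcripts of the class, with a further 30.3% in cells on no list. Within both lists it was uneven, as described below. Astrocyte-list cells with no Spag16 transcript held 0.251 Plch1 per cell, and fibroblast and meningeal-list cells with no Htr2c transcript held 0.0550. Non-neuronal cells were divided by the marker list with the largest sum, of at least 5 and at least 2 times the next list, which left 28.5% of them on no list. Astrocyte-list cells held 0.369 to 0.768 Plch1 transcripts per cell (median 0.608; control-probe bound 0.186) and fibroblast and meningeal-list cells 0.386 to 0.773 (median 0.686; bound 0.0337). The means in the oligodendrocyte (0.0566), precursor (0.0590), microglia and macrophage (0.0874) and endothelial lists (0.0635) lay below their control-probe bounds of 0.395, 0.158, 0.247 and 0.103, and the mural list held 0.0604 against 0.0315. Every section of the first 2 lists lay above every section of the others.

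Against the other non-neuronal cells the Plch1 log2 difference was 1.37 in astrocyte-list and 1.60 in fibroblast and meningeal-list cells, and -1.33 to -2.07 in the 5 other lists, each past the threshold by edgeR. Plcxd2 and Plcxd3 were low in every list, with means of 0.130 to 0.421 and 0.0531 to 0.264 per cell, although Plcxd2 lay above the control-probe bound in all but the oligodendrocyte list. Plcxd3 in precursor-list cells, at 0.182 to 0.538 by section, also lay above the mean bound of that list. The TMM differences of Plcxd2 and Plcxd3 were lowest in fibroblast and meningeal-list cells (-0.69 and -0.79) and highest in precursor-list cells (1.18 and 1.77). Those of 0.47 and 0.59 in oligodendrocyte-list cells turned to -0.25 and -0.13 per cell, and the 0.53 of Plcxd2 in mural-list cells turned to -0.036 per cell and its call was lost without intermediate replicate 1. In microglia and macrophage-list cells the 0.60 of Plcxd3 was 0.13 per cell and did not pass there. Calls numbered 3 of 3 in the astrocyte (86.3% of 233 genes called), fibroblast and meningeal (87.1%), oligodendrocyte (91%), precursor (73.8%), microglia and macrophage (77.7%) and endothelial lists (81.5%) and 2 of 3 in the mural list (55.4%).

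The 2 high lists were not uniform, so the cells are called here by the list and given no cell type name. Split on Htr2c, a receptor gene that is not on the list, after values were seen, fibroblast and meningeal-list cells with at least 5 Htr2c transcripts held 1.02 ± 0.14 Plch1 transcripts per cell (SD, n = 7) and those with none held 0.0550 ± 0.027. Dcn and Col1a1, collagen-matrix genes of fibroblasts, went the other way, at 3.30 and 1.02 per cell in the first and 10.7 and 5.40 in the second. Igf2, which is on the same list, was higher in the Htr2c-rich cells, at 29.0 against 13.1. Spag16, an ependymal marker, was also higher there, at 3.83 against 0.137. Htr2c-rich cells made up 8.27% of non-neuronal cells and held 29.3% of their Plch1 transcripts.

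Of 4 listed ependymal markers only Spag16, a gene of motile cilia, was on the panel, and the ependymal list held 39 cells. Astrocyte-list cells with at least 5 transcripts of Spag16 held 2.38 ± 0.18 Plch1 transcripts per cell, and those with none held 0.251 ± 0.030. The Spag16-rich cells also held 14.1 Cd24a against 0.226, and 0.745 against 5.77 of the astrocyte gene Ntsr2. Other genes of the astrocyte list differed from this, with Aqp4 at 9.64 against 6.58 and Gfap at 6.4 against 6.43. They were 1.63% of non-neuronal cells and held 13.4% of their Plch1. Both splits are descriptions, with no test.

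**Figure D5:**
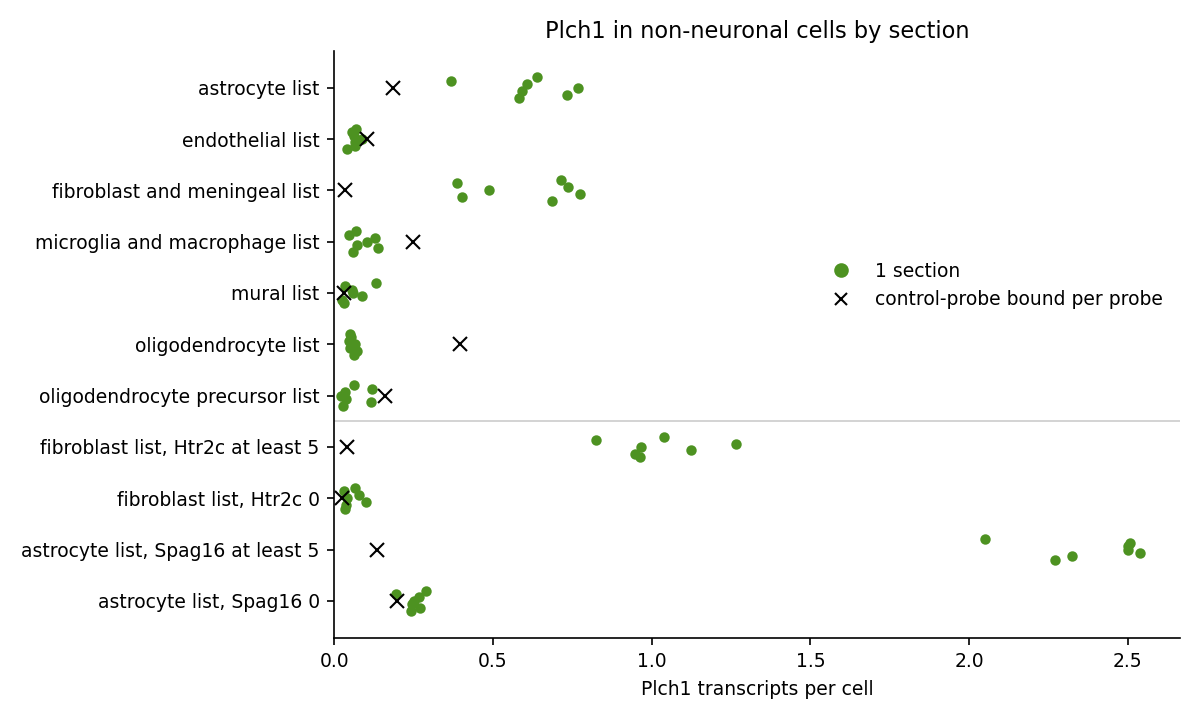
Plch1 transcripts per cell (horizontal axis from 0) in non-neuronal cells by marker list, and below the line in the fibroblast and meningeal and the astrocyte lists split on Htr2c or Spag16. Each point is 1 section and the cross is the mean control-probe bound per probe. Spag16-rich astrocyte-list cells lay at 2.05 to 2.54, Htr2c-rich fibroblast-list cells at 0.824 to 1.27, and 4 lists lay below the bound on average.

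In the fit on position alone no difference passed for these genes. Of 36 tests (3 genes, 4 classes, 3 pairs of positions), 0 passed by edgeR and 0 by DESeq2, and 1 had an unadjusted p under 0.05 by either tool. Over the whole panel 0% of the 249 genes passed by edgeR in any class, while DESeq2 called 46 over all genes and contrasts. The smallest was Plcxd2 in VGLUT1-gate cells, at -0.14 in log2 for posterior minus anterior (SE 0.05, edgeR adjusted p = 0.212). The SE in VGLUT2-gate cells was 0.44 to 0.49 for Plcxd2 and 0.58 to 0.64 for Plcxd3, the largest of the 4 classes, which limits what could be seen there. These counts also depend on the fit. With the replicate number as a block, 1 of the 36 tests passed by edgeR, 8 had an unadjusted p under 0.05, and 188 calls arose over all genes and contrasts. The labels do not say what a shared replicate number marks, so an absence of position differences cannot be read from the fit on position alone. The interaction of class and position did not pass either (0% of 249 genes called by edgeR), with unadjusted p of 0.984, 0.997 and 0.281 for Plcxd2, Plcxd3 and Plch1 and adjusted p of 1.0 for each.

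Of 71 listed genes of the surrounding pathway, 12 were on the panel. They were 4 of 29 phosphoinositide enzymes and lipid binders, 2 of 13 calcium release and entry genes, 2 of 9 effectors and 4 of 20 Gq-coupled receptors, of which Ntsr2 was not tested as an astrocyte marker. Plcb1 shared with Plcxd2 its highest level in VGLUT1-gate cells, at 10.1 to 13.8 transcripts per cell (median 12.6), but was lower in VGLUT2-gate cells (3.27 to 4.52, median 3.88) than in GAD-gate cells (8.31 to 11.8, median 9.23). The Plcb1 log2 difference was -1.78 for VGLUT2-gate minus VGLUT1-gate cells and -1.43 for VGLUT2-gate minus GAD-gate cells, past the threshold by edgeR in both.

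In the comparison of the VGLUT2 and VGLUT1 gates all 11 tested pathway genes passed by edgeR, beside 86.3% of the panel. The 5 higher in VGLUT2-gate cells included the receptor genes Tacr1 and Htr2c (1.65), the phosphatase gene Inpp4b (1.76) and the kinase gene Pip5k1b (0.18). The 6 lower ones were Plcb1, the kinase gene Prkca (-1.61), Plekha2 (-1.31), the calcium-permeable channel genes Trpc4 (-0.92) and Orai2 (-0.54), and Rasgrf2 (-0.47). Tacr1 was at 0.0242 transcripts per VGLUT1-gate cell, below the control-probe bound, so its fold has no exact size. Between the VGLUT2 and GAD gates 3 were higher, 5 lower and 3 (Htr2c, Orai2 and Rasgrf2) did not pass, beside 80.3% of the panel called. Both counts lie near the panel's own share. Htr2c per cell was 1.37 to 2.37 in non-neuronal cells, which overlapped the 0.899 to 3.12 of VGLUT2-gate cells and lay above the 0.314 to 0.693 of VGLUT1-gate cells.

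Over 26 classes and subgroups, levels per 1000 transcripts were set beside those of 232 other genes that had served neither as a gate nor as a marker. The closest patterns to Plcxd2 were those of Cpne4, Cpne6 and Rspo1 (Pearson r = 0.79, 0.78 and 0.73 over 26 points). Among the closest to Plcxd3 were Cntnap4 (0.90) and Rab3b (0.84), and Plch1 ran closest to Rmst (0.75), Trp73 (0.73) and Nr2f2 (0.69). Plcxd2 and Plcxd3 correlated with each other at 0.62, and Plch1 with them at -0.08 and -0.19. The points share sections, and subgroups are parts of their classes, so these values only describe the order.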

How the data were processed

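The authors deposited raw counts of decoded transcripts for each gene in each segmented cell. The submitters' processing notes name Seurat, with no version, and for the outlining of cells no settings are given in the sources used here. Cells were joined to sections by barcode through the deposited table of cells. Sums per section and class went into edgeR 4.0.16, run in R 4.3.3 with limma 3.58.1, using filterByExpr, TMM, the quasi-likelihood F test with the section as a block (none for position), and Benjamini-Hochberg adjustment at 0.05 over the genes tested. The 4 gate genes and 44 non-neuronal markers were not tested. The edgeR fit was tested on simulated data. Ratios had 0.5 added to each count and used an exact permutation test (scipy 1.17.1). Python 3.11.15 was used. DESeq2 1.42.0 and other scalings, gates, depths and classes were alternatives. The 3 genes, the gene lists and the rule for named genes (3 genes, measured pathway genes, 3 closest patterns each) were chosen with earlier results of these data known. Results for some genes under that rule are not reported here.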

Additional observations from a re-analysis of the deposited data

Results flagged for a closer look

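Of 96 sets of 4 to 10 section values of these genes, 5 had a highest or lowest section set apart from the others by Dixon's criterion, which chance meets in about 1 of 20. Plcxd3 in Vip-led GAD-gate cells was 4.47 transcripts per cell in posterior replicate 3 (211 cells) against 0.333 to 1.49 in the other sections. There those cells also held 9.55 Nts, 5.36 Vat1l and 10.0 Zcchc12 transcripts, against 0.0600, 1.66 and 2.10 in posterior replicate 4, and the part of this in the Plcxd3 value was not tested. Plcxd3 in Lamp5-led cells was likewise highest in posterior replicate 3, at 4.04 with the next section at 2.06, and Nts was 3.86 there against 0.594 in posterior replicate 4. Plch1 in Pvalb-led cells was lowest in posterior replicate 3, at 0.830 with the next at 0.985. Plcxd2 in cells past both glutamatergic gates was lowest in posterior replicate 4, at 7.95 with the next at 9.20. Plcxd3 in precursor-list cells was highest in anterior replicate 2, at 0.538 over 52 cells with the next at 0.288.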

How the results depend on the processing

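Of 18 class comparisons, 7 changed their call or direction under some setting, as did 3 of 18 ratio tests, 1 of 36 position tests and 18 of 66 subgroup tests; the cause was not tested. Plch1 reversed for GAD-gate minus non-neuronal cells per cell (0.62) and with all cells past no gate as non-neuronal (0.11), and for VGLUT2-gate minus non-neuronal cells per cell (0.57), where the second setting gave -0.032. Plcxd2 for VGLUT2-gate minus VGLUT1-gate cells reversed with cells past several gates counted in each (0.16). Plcxd3 for VGLUT2-gate minus VGLUT1-gate cells passed with DESeq2 (0.30), library sizes (0.41), counts per cell (0.37), gates at 10 (0.51), several gates (0.58) and thinned cells (0.46), and ran from 0.13 to 0.43 without 1 section. Plcxd3 for VGLUT1-gate minus GAD-gate cells passed with library sizes (-0.35), several gates (-0.30) and thinned cells (-0.33), and for VGLUT2-gate minus GAD-gate cells with several gates (0.27). Plch1 for VGLUT2-gate minus GAD-gate cells passed with library sizes (-0.21) and gates at 3 (-0.20), and ran from -0.22 to -0.046 without 1 section. With gates at 3, the ratio of Plcxd2 to Plcxd3 no longer passed against non-neuronal cells for VGLUT1-gate (0.21) and VGLUT2-gate cells (-0.39). Without 1 section that ratio ran from -1.03 to -0.81 for VGLUT2-gate minus VGLUT1-gate and from -0.58 to -0.39 for VGLUT2-gate minus non-neuronal cells. Subgroup values reversed for Plcxd3 in Pdyn-led cells (-0.55 with library sizes, -0.22 per cell), and per cell for Plch1 in Prox1-led (-0.44), Plcxd2 in mural-list (-0.036) and oligodendrocyte-list (-0.25) and Plcxd3 in oligodendrocyte-list cells (-0.13); the per-cell scale for subgroups was chosen after seeing the data.

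With the replicate number as a block, Plcxd2 in VGLUT1-gate cells passed for posterior minus anterior (-0.19), and 188 calls over all genes and the 12 position contrasts replaced 0, against 46 by DESeq2, 11 on slide 1 alone and 21 without posterior replicate 4. Deviations of same-numbered sections correlated at 0.73 to 0.84, but only 2 numbers recur, and the labels do not say that they mark an animal. The block on sums per replicate number changed no class call of the 3 genes. Levels below the control-probe bound, Plcxd3 in non-neuronal cells among them, have no exact size.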
